A study of Mus musculus with 11 samples.

Results

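The gene expression profile of siRNA2-transfected MLTCs was compared with that of non-targeted MLTCs, using 3 arrays labelled siRNA 2 and 4 arrays labelled negative control, i.e., 7 of the 11 arrays of the series, chosen by their labels. MLTCs (MLTC-1) were established from a mouse Leydig cell tumor and are kept in culture. The control cells received the non-targeting RNA 4611G, and the treated cells received siRNA2, 1 of 2 short RNA duplexes against *Mamld1*, each at 20 nM with Lipofectamine RNAiMAX. RNA was taken at 48 hours, and the methods add that hCG, which stimulates Leydig cells, was given to all cells before the harvest. The remaining 4 arrays held siRNA1, the other duplex against *Mamld1*, and its values are given beside those of siRNA2. Nothing in the sources states whether arrays of a group came from separate cultures, so the p-values measure the spread between arrays, which may be technical.

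Leydig cells of the testis take up or make cholesterol and convert it to testosterone through a short series of enzymes such as Cyp11a1 and Cyp17a1. *Mamld1* encodes a nuclear protein with homology to mastermind, a co-activator of Notch signaling, and is known for its role in male sex development. A transfected siRNA enters the RNA-induced silencing complex and guides it to matching mRNAs, which include the intended target and can include other mRNAs that match its short seed.

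Each spot gave a background-subtracted signal intensity, which was divided by the 75th percentile of its array, and is printed as a normalised signal in which 100 is that percentile. The percentile itself was 470 to 582 on the control arrays and 488 to 579 on the siRNA2 arrays, and the software marked 58.6% to 62.6% of spots as well above background. Signals of different probes have no common scale, so levels are compared between arrays and never between genes. The arrays lay on 3 slides that each held all 3 groups. All 10 of 10 Leydig cell markers, such as *Hsd3b1*, *Cyp11a1*, and *Star*, were well above background, and none reached a 2-fold change. Of the markers of other cells, 3 of 7 for Sertoli cells, 4 of 6 for germ cells, 1 of 7 for macrophages, and 1 of 5 for endothelial cells could be tested, and 0 of these 9 were called. The defining *Fshr*, *Sox9*, *Pecam1*, *Kdr*, *Ptprc*, and *Csf1r* were not well above background on all arrays of any group. By the adjusted p alone, *Dhh* of Sertoli cells (0.72, siRNA1 -0.13) and *Cdh5* of endothelial cells (0.84, siRNA1 1.22) were higher with siRNA2 on the log2 scale, and the part of other cells in the results was not tested.

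The target gene was examined first. *Mamld1* had a normalised signal of 4.83, 4.67, 6.54 and 6.14 on the control arrays and of 2.49, 3.77 and 3.59 on the siRNA2 arrays. All siRNA2 arrays lay below all control arrays, at a log2 fold change of -0.77 ± 0.22 (SE, adjusted p = 0.0309, limma with Benjamini-Hochberg adjustment). The fold was 1.70, which is under the limit of 2 used for a call. A fit that blocked on slide gave -0.83 (limma adjusted p = 0.00608), and within the 3 slides it was -0.93, -0.797 and -0.77. With siRNA1 the log2 fold change was -0.93, and siRNA2 differed from siRNA1 by 0.16 ± 0.22 (SE, limma adjusted p = 0.64). The probe lies near the low end of the signals, and other background corrections moved its value, with a log2 fold change of 0.44 under normexp (limma adjusted p = 0.749). Without control 3, control 4, siRNA2 array 1, or siRNA2 array 3, its adjusted p was 0.0792, 0.0746, 0.117, and 0.0501.

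Over all genes, a probe is called when its adjusted p is at most 0.05 and its change is at least 2-fold. Of 24250 tested probes, 180 were higher (0.742%) and 365 lower (1.51%) in siRNA2-transfected than in non-targeted MLTCs, and the median log2 fold change of all tested probes was -0.0082. Bright probes were well above background on all 7 arrays with a mean normalised signal of at least 25. Among 14964 bright probes, 80 (0.535%) were higher and 192 (1.28%) lower. All 80 and all 192 had no overlap between siRNA2 and control arrays. Of all tested probes, 12.4% lay wholly above and 15.7% wholly below the control arrays. The calls were made on these same arrays, so the lack of overlap is no separate support. Because each of the 3 slides held both groups, it also fixes the sign within each slide, which all of these probes kept. With slide as a block, 75 of the 80 and 184 of the 192 were still called. Among 9286 dim probes, 100 (1.08%) were higher and 173 (1.86%) lower. The plot of change against signal shows that decreases outnumbered increases at bright and at dim probes.

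**Figure D1:**
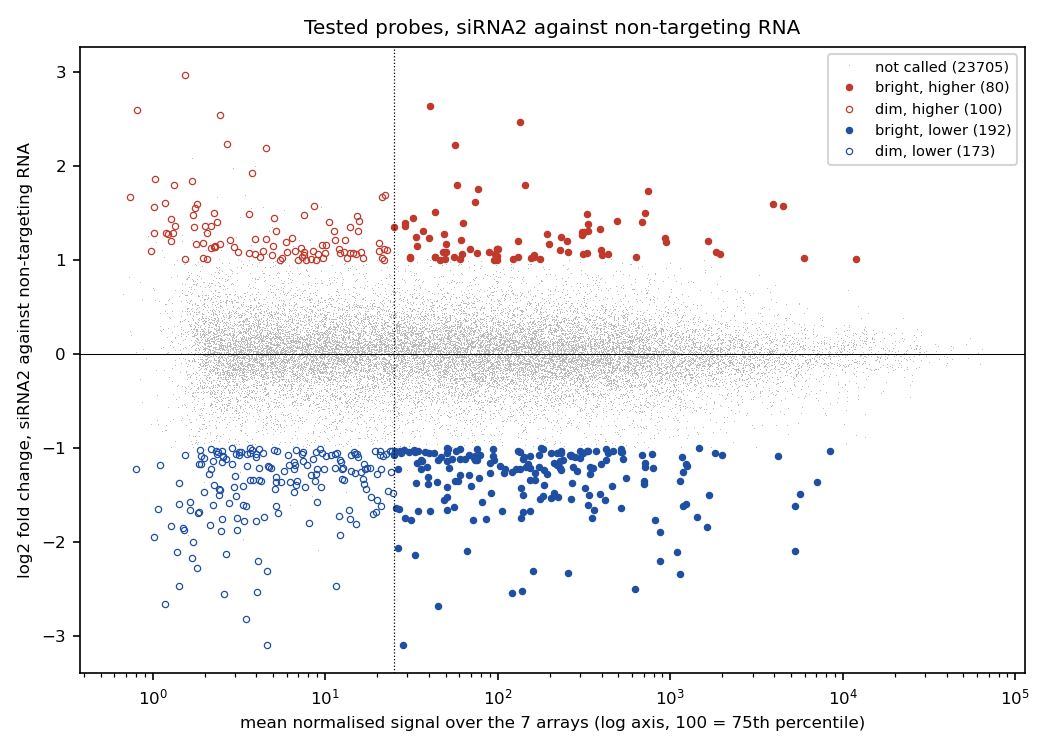
Each point is a tested probe, with its mean normalised signal over the 7 arrays on a log axis (100 is the 75th percentile of an array) and its log2 fold change of siRNA2 against non-targeting RNA. Filled points are bright called probes (80 higher and 192 lower), open points dim called probes (100 and 173), grey points the others, and the dotted line marks a signal of 25.

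The bright probes with a gene symbol stood for 55 genes that were higher and 149 that were lower. Of these genes, 78 had more than 1 bright probe. In 72 of them all bright probes had the same sign, in 25 all were called, and in 6 the signs disagreed (*Eif4e2*, *Ivns1abp*, *Map4k4*, *Napepld*, *Nutf2*, and *Tardbp*). Each gene is given by its brightest called probe, unless stated otherwise, and other probes are given for part of the genes only. Probes of a gene can lie on different transcripts, which the arrays do not resolve.

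Changes of at least 4-fold were found at 14 bright lower and 3 bright higher probes. The 15 largest bright decreases had limma adjusted p from 2.71e-07 to 1.11e-05, and the 15 largest bright increases from 1.42e-07 to 0.000253. *Gsta3*, *Gsta4*, *Cbr3*, and *Pir*, which encode 2 glutathione S-transferases, a carbonyl reductase, and the iron-binding nuclear protein pirin, fell to 23.2%, 27.96%, 23.4%, and 17.7% of the control signal. *Gsta3* had a normalised signal of 2168, 2049, 1882 and 2155 on the control arrays, and of 531, 431 and 478 on the siRNA2 arrays. This is a log2 fold change of -2.11 ± 0.10 (SE, limma adjusted p = 6.65e-07), with -0.32 for siRNA1, and a second bright probe gave -2.20. Signals of *Gsta4* were 2864, 2604, 2933 and 2943 in the controls and 872, 712 and 799.9 with siRNA2, a log2 fold change of -1.84 ± 0.09 (siRNA1 -0.39). In both genes the highest siRNA2 array stayed below the lowest control array by more than the range of either group. *Cbr3* went from 9079, 10595, 9754 and 9976 in the controls to 2256, 2261 and 2388 with siRNA2, a log2 fold change of -2.096 ± 0.10 (siRNA1 -0.20). For *Pir*, the control arrays gave 1345, 1340.2, 1354 and 1218, the siRNA2 arrays gave 278, 225 and 200.1, and the log2 fold change was -2.499 ± 0.11 (siRNA1 -0.47). All 4 genes had negative siRNA1 values that were smaller than 0.5 in size. With siRNA1, *Pir*, *Gsta4*, and *Gsta3* were lower by the adjusted p alone (limma adjusted p = 0.00575, 0.00696, and 0.0278), and *Cbr3* was not (0.126). In each of the 4 genes siRNA2 differed from siRNA1, by -1.78 ± 0.10, -1.45 ± 0.09, -1.89 ± 0.10, and -2.03 ± 0.11 on the log2 scale (SE, limma adjusted p from 9.02e-07 to 2.7e-06).

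Several other bright genes of detoxification and redox metabolism were lower as well. With the log2 fold change with siRNA2 ± SE and the siRNA1 value in parentheses, they were *Adh7* (a retinol-oxidising alcohol dehydrogenase, -1.496 ± 0.11, siRNA1 -0.08), *Cat* (catalase, which breaks down hydrogen peroxide, -1.38 ± 0.14, siRNA1 0.21), *Cyb5r3* (cytochrome b5 reductase, -1.59 ± 0.09, siRNA1 -0.69), and *Pgd* (the NADPH-producing 6-phosphogluconate dehydrogenase, -1.07 ± 0.07, siRNA1 0.20). The list of oxidative stress and glutathione genes was described with 1 probe a gene, the brightest. Members of this and the other lists were chosen with earlier results of these data known. Counts per list therefore describe the members and test nothing. Over all 11825 genes so represented, 82 (0.693%) were called higher and 212 (1.79%) lower. Of 30 tested members, 0 were called higher and 3 lower, namely *Cat*, *Gsta3*, and *Gsta4*. By the adjusted p alone, which 8.06% of all genes passed upwards and 12.2% downwards, 10 members were lower and 0 higher. The 7 added in this way are *Nqo1* (-0.78 ± 0.13, siRNA1 -0.42), *Srxn1* (-0.77 ± 0.08, siRNA1 -0.30), *Sod2* (-0.76 ± 0.10, siRNA1 0.05), *Gsta2* (-0.51 ± 0.10, siRNA1 -0.37), *Gclm* (-0.44 ± 0.11, siRNA1 -0.13), *Gsta1* (-0.42 ± 0.10, siRNA1 -0.44), and *Mgst1* (-0.40 ± 0.08, siRNA1 -1.48). The median over the list was -0.11 (siRNA1 -0.14), against -0.022 over all genes. The glutathione peroxidases *Gpx1* (0.08, siRNA1 -0.16) and *Gpx4* (-0.05, siRNA1 -0.18), the peroxiredoxin *Prdx1* (-0.11, siRNA1 -0.17), and the thioredoxin reductase *Txnrd1* (-0.06, siRNA1 0.27) did not pass the adjusted p.

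Genes of this class are known to be controlled in part by NRF2 (*Nfe2l2*) through the antioxidant response element, whose core was searched on both strands as TGACNNNGC in the RefSeq promoters (250 bases before to 50 after a gene's start, build GRCm38.p6). Stretches that hold the core are shown for *Gsta3* and *Pir*, which were picked as examples from the 7 largest bright decreases. Whether the others of the 7 hold the core is not given. The matching bases are in capitals, and the sequence is written along the gene's strand. In *Pir* the match lies on the opposite strand.
*Gsta3*, chr1:21240439-21240498, plus strand: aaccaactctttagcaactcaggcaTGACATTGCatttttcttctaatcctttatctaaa
*Pir*, chrX:164269192-164269251, plus strand: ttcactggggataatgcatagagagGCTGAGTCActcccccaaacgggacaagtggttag
The core was found in 3781 of 27025 genes with a promoter (14.0%). It was found in 18 of 122 bright lower genes with a promoter (14.8%), in 4 of 44 bright higher genes (9.09%), and in 9 of 25 genes of the oxidative stress list (36.0%). The share among the lower genes was near that of all genes, and the oxidative stress list was made of genes of the class named above. The mRNA of *Nfe2l2* itself had a log2 fold change of -0.16 with siRNA2 and 0.05 with siRNA1. The activity of NRF2 was not measured, and its part in the decreases was not tested.

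Lysosomal, endosomal, and nuclear transport genes held other large decreases. *Ostm1*, the partner of the lysosomal chloride exchanger ClC-7, had a normalised signal of 2566, 2133, 2089.6 and 2436 in the controls and 501, 414 and 449 with siRNA2. Its log2 fold change was -2.34 ± 0.10 (SE, limma adjusted p = 3.07e-07), with -0.03 for siRNA1. *Lmbrd1*, which takes part in the export of cobalamin from lysosomes, went from 646, 553, 536 and 649 in the controls to 185, 179 and 167 with siRNA2 (log2 fold change -1.75 ± 0.11, siRNA1 -0.13). In both genes the groups were far apart, and the siRNA1 arrays overlapped the control arrays. *Clint1*, an epsin-related clathrin adaptor at the trans-Golgi network, had 494, 596, 500.4 and 457 in the controls and 109, 97.5 and 98.8 with siRNA2 (log2 fold change -2.32 ± 0.18, siRNA1 0.10), while a second bright probe gave -0.69. *Nutf2* encodes the import factor that carries Ran into the nucleus. The probe with the largest bright decrease lay in this gene, with signals of 75.2, 61.7, 69.7 and 78.5 on the control arrays and 10.04, 6.68 and 8.61 on the siRNA2 arrays (log2 fold change -3.09 ± 0.13, siRNA1 0.46). Another *Nutf2* probe, with a higher signal, gave 0.044 (limma adjusted p = 0.81), so the 2 probes disagree.

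The remaining genes among the 15 largest bright decreases have varied functions. *Dhrs13*, a short-chain dehydrogenase, had 265, 227, 262 and 285 in the controls and 39.7, 44.1 and 50.04 with siRNA2 (log2 fold change -2.54 ± 0.10, siRNA1 0.11). For *Dpy19l1*, which encodes a C-mannosyltransferase of the endoplasmic reticulum, the values were 320.1, 343, 314 and 291 in the controls and 68.03, 65.8 and 58.7 with siRNA2 (log2 fold change -2.31 ± 0.10, siRNA1 0.29), and its other probe was also called at -1.68. *Klhl42*, a substrate adaptor of cullin ubiquitin ligases, had a narrow control range with 124, 126, 123 and 122, against 32.6, 30.9 and 24.2 with siRNA2 (log2 fold change -2.09 ± 0.11, siRNA1 -0.00421), and a second bright probe gave -0.0056. All siRNA2 arrays of these probes were below all control arrays, which the choice of the 15 required. *Map4k4*, a kinase upstream of JNK signaling, changed from 1433, 1168, 1306 and 1621 in the controls to 426, 345 and 445 with siRNA2 (log2 fold change -1.77 ± 0.13, siRNA1 -0.09), whereas its other bright probe gave 0.12. *Adal*, an adenosine deaminase-like enzyme, had 129.8, 106, 123 and 126 in the controls and 38.04, 31.7 and 37.4 with siRNA2 (log2 fold change -1.76 ± 0.11, siRNA1 -0.25), with -0.95 for its second bright probe. The chromobox gene *Cbx7*, a Polycomb subunit, had 47.3, 64.00, 55.3 and 47.6 in the controls and 16.03, 15.3 and 15.7 with siRNA2 (log2 fold change -1.76 ± 0.11, siRNA1 -0.04). *Swt1*, an RNA endoribonuclease of the nucleus, was lower with both duplexes, with 262, 211, 209 and 238 in the controls, 65.03, 65.3 and 74.8 with siRNA2, and 134, 140.2, 126 and 136 with siRNA1. Its log2 fold changes were -1.74 ± 0.10 for siRNA2 and -0.77 ± 0.09 for siRNA1, and the siRNA2 minus siRNA1 value was -0.97 ± 0.10 (SE, limma adjusted p = 6.33e-05). Its other 2 probes, both dim, gave -0.86 and -0.63.

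Among the 15 largest bright increases, genes of membrane traffic and of the actin cortex were *Exoc4*, *Eps15*, *Arpc1b*, and *Ppp1r21*. *Exoc4* encodes a subunit of the exocyst, which tethers secretory vesicles to the plasma membrane. It had 60.5, 61.9, 68.8 and 67.4 in the controls, 349, 380.2 and 344 with siRNA2, and 239, 258, 255 and 248 with siRNA1. The log2 fold change was 2.47 ± 0.08 (SE, limma adjusted p = 1.42e-07), with 1.95 for siRNA1, and siRNA2 lay above siRNA1 by 0.52 ± 0.08 (limma adjusted p = 0.000906). *Eps15*, a scaffold of clathrin-coated pits, went from 465, 438, 449 and 450.1 in the controls to 1288, 1122 and 1174 with siRNA2 (log2 fold change 1.41 ± 0.09, siRNA1 1.47), and its other bright probe gave 1.80. *Arpc1b*, a subunit of the Arp2/3 complex that nucleates actin branches, had 2227, 2373, 2606 and 2663 in the controls and 6232, 7548 and 8768 with siRNA2 (log2 fold change 1.597 ± 0.15, siRNA1 1.28). The endosomal protein *Ppp1r21* had 462, 460.5, 411 and 442 in the controls and 1605, 1410.0 and 1426 with siRNA2 (log2 fold change 1.74 ± 0.13, siRNA1 1.41). In all 4 genes, the siRNA2 and control arrays did not overlap, which the choice of the 15 required.

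Signaling and transcription genes formed another part of the increases. *G6pc* encodes the catalytic subunit of glucose-6-phosphatase, which releases free glucose. It had 489, 405, 461 and 488 in the controls and 1178, 1273 and 1472 with siRNA2, whereas the siRNA1 arrays gave 231, 246, 238 and 241. The log2 fold changes were 1.503 ± 0.10 for siRNA2 and -0.94 ± 0.09 for siRNA1 (SE, limma adjusted p = 4.51e-06 and 3.71e-05), i.e., the 2 duplexes moved this gene in opposite directions. *Npy4r*, a receptor for pancreatic polypeptide, had 30.1, 23.2, 27.04 and 30.5 in the controls, 81.9, 70.8 and 83.2 with siRNA2, and 22.3, 20.4, 19.3 and 23.2 with siRNA1 (log2 fold change 1.51 ± 0.12, siRNA1 -0.37). *Igfbp5*, an insulin-like growth factor binding protein, went from 47.6, 46.2, 43.8 and 45.7 in the controls to 141, 134 and 146 with siRNA2 (log2 fold change 1.61 ± 0.09, siRNA1 0.52), and siRNA2 exceeded siRNA1 by 1.09 ± 0.09. The control arrays of this gene were close together, and the siRNA2 arrays were 3.06-fold higher. *Sema7a*, a membrane-anchored semaphorin, had 177, 216, 219 and 239 in the controls and 468, 582 and 765 with siRNA2 (log2 fold change 1.49 ± 0.18, siRNA1 0.77). *Ywhah*, a 14-3-3 protein, had 2915, 3166, 2394 and 2868 in the controls and 8122, 8488 and 8587 with siRNA2 (log2 fold change 1.57 ± 0.10, siRNA1 1.61). For *Rasl12*, a Ras-like GTPase, the values were 291, 293, 334 and 383 in the controls and 759.8, 879 and 966 with siRNA2 (log2 fold change 1.42 ± 0.13, siRNA1 1.14). *Klf2* encodes a zinc finger transcription factor. Its called probe had 36.7, 37.5, 45.4 and 47.7 in the controls and 97.00, 103 and 131 with siRNA2 (log2 fold change 1.397 ± 0.17, siRNA1 1.02), but the brightest *Klf2* probe gave 0.39 (limma adjusted p = 0.689).

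The other increases of this rank were *Asph*, *Ssu2*, *Lysmd1*, and the RIKEN cDNA D030029J20Rik. *Asph*, an aspartyl beta-hydroxylase of the endoplasmic reticulum, had 33.7, 26.04, 29.1 and 28.6 in the controls and 164, 130.0 and 121 with siRNA2 (log2 fold change 2.23 ± 0.16, siRNA1 1.86), with 0.67 and 0.56 for its other 2 probes. D030029J20Rik, named by the authors' deposited table, had 17.3, 18.9, 16.5 and 21.5 in the controls and 133, 108 and 106 with siRNA2 (log2 fold change 2.64 ± 0.15, siRNA1 2.19). For *Ssu2* the values were 29.2, 42.4, 31.9 and 33.01 in the controls and 104, 127 and 124 with siRNA2 (log2 fold change 1.801 ± 0.15, siRNA1 2.404), and siRNA1 exceeded siRNA2 (siRNA2 minus siRNA1 -0.603 ± 0.15, limma adjusted p = 0.015). Its other bright probe gave 0.92 and a dim one 1.57 with siRNA2. *Lysmd1*, which carries a LysM domain, had 43.02, 48.3, 41.2 and 50.5 in the controls and 160.3, 151 and 151 with siRNA2 (log2 fold change 1.76 ± 0.09, siRNA1 1.74). Its other 2 probes were also called, at 1.67 and 1.41.

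**Figure D2:**
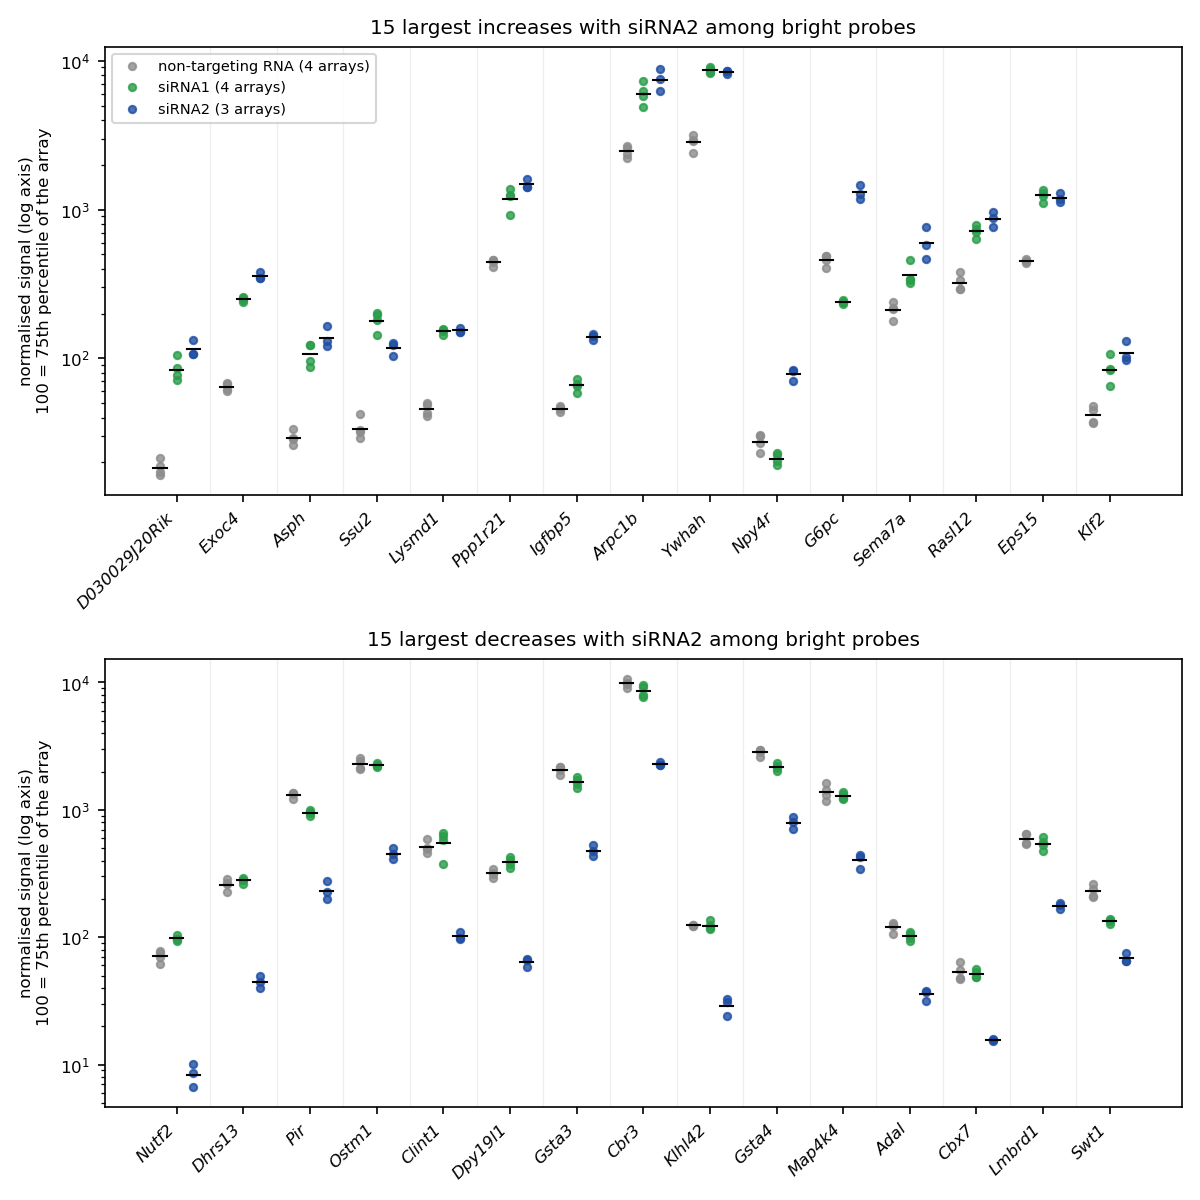
Normalised signal (log axis, 100 is the 75th percentile of the array) of the 15 largest increases and 15 largest decreases among bright genes, each by its brightest called probe, with a point for each array of non-targeting RNA (grey, 4), siRNA1 (green, 4), and siRNA2 (blue, 3), and a bar at the geometric mean of each group. All siRNA2 points lie beyond all control points, which the choice of these genes required. For most decreases the siRNA1 points lie near the controls, as for *Ostm1* with a log2 fold change of -2.34 for siRNA2 and -0.03 for siRNA1.

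Further bright genes that were lower are grouped here by what they are known to do, each with its log2 fold change ± SE and its siRNA1 value. Enzymes of triglyceride and phospholipid metabolism included *Plpp3* (a lipid phosphatase, -1.73 ± 0.13, siRNA1 -0.48), *Dgat2* (the last step of triglyceride synthesis, -1.54 ± 0.10, siRNA1 -0.78), *Agpat2* (acylation of lysophosphatidic acid, -1.18 ± 0.11, siRNA1 -0.48), *Lpin1* (phosphatidate phosphatase, -1.14 ± 0.14, siRNA1 -0.09), and *Ldah* (a lipid droplet hydrolase, -1.21 ± 0.11, siRNA1 -0.05). The other *Lpin1* probes gave -0.99 and -1.06. Of the list of fatty acid and lipid droplet genes, 4 of 32 tested members were called lower and 0 higher, against 1.79% and 0.693% of all genes. The members were chosen with earlier results known, so the count is no test. The called members were *Dgat2*, *Agpat2*, and the dim *Cidea* (a lipid droplet protein, -1.73 ± 0.15, siRNA1 -1.08) and *Acot5* (an acyl-CoA thioesterase, -1.62 ± 0.14, siRNA1 -1.16). *Cidea* lost its call under the 2 normexp background corrections (weakest value -0.22), and *Acot5* under 1 of them (-0.56). The median of the list was -0.14, with -0.083 for siRNA1. By the adjusted p alone 9 members were lower, among them the triglyceride lipase *Pnpla2* (-0.996, siRNA1 -0.28), and 0 higher, against 12.2% and 8.06% of all genes.

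The sterol genes stayed under 2-fold. Of 24 tested genes of cholesterol synthesis and uptake, 0 were called, at a median of -0.35 (siRNA1 -0.38). Of these genes, 15 had an unadjusted limma p under 0.05, which 33% of all genes had. By the adjusted p alone 12 were lower and 0 higher, against 12.2% and 8.06% of all genes. They included *Mvd* (-0.67 ± 0.16, siRNA1 -0.85), *Hmgcs1* (-0.64 ± 0.12, siRNA1 -0.01), *Cyp51* (-0.63 ± 0.12, siRNA1 -0.40), *Pmvk* (-0.61 ± 0.11, siRNA1 -0.86), and *Sqle* (-0.41 ± 0.09, siRNA1 -0.23), all of the pathway from acetyl-CoA to cholesterol. In the plot of the 3 metabolic lists, the sterol genes form a broad shift of less than 2-fold, whereas the oxidative stress and lipid lists each hold a few large decreases and many members near 0. Of 24 tested genes of steroid hormone production, 2 were called lower (1.79% of all genes were), *Akr1c18* (20-alpha-hydroxysteroid dehydrogenase, -1.08 ± 0.11, siRNA1 -0.06) and *Hsd17b12* (-1.07 ± 0.25, siRNA1 -0.59). *Akr1c18* lost its call under the 2 normexp settings, with a weakest value of -0.024. *Hsd17b12* was not called with slide as a block (-0.98) or without control 1, siRNA2 array 2, or siRNA2 array 3 (-0.88, -0.96, and -0.93). *Cyp17a1*, which encodes 17-alpha-hydroxylase, was at -0.48 (adjusted p alone), with -0.92 for siRNA1.

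**Figure D3:**
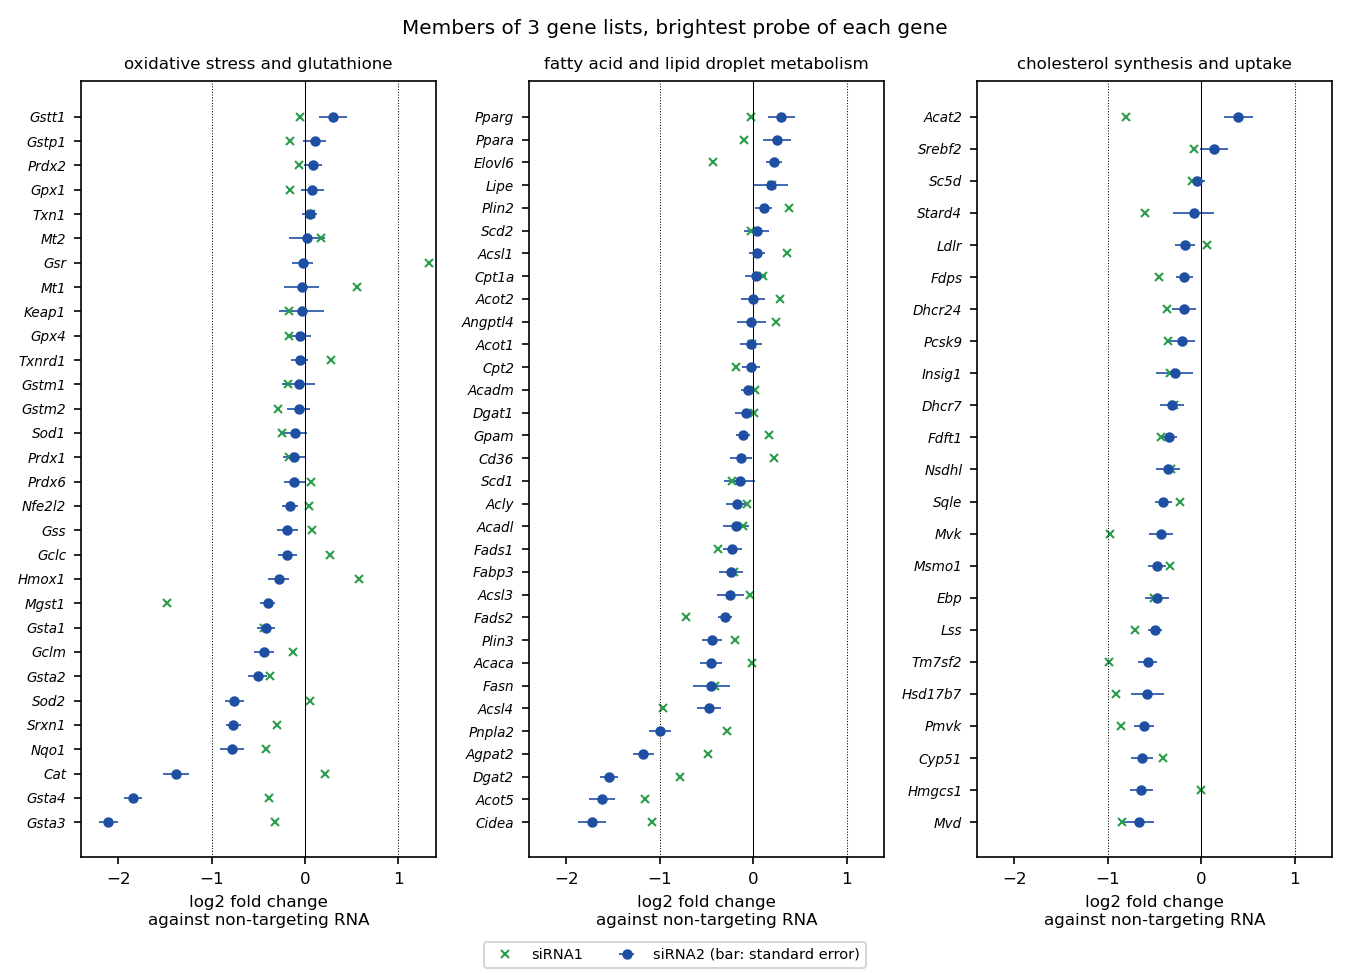
Log2 fold change against non-targeting RNA of members of 3 gene lists (brightest probe of each gene), as blue points with the standard error for siRNA2 and green crosses for siRNA1, with dotted lines at a 2-fold change. *Gsta3*, *Gsta4*, and *Cat* stand below the rest of the first list, 4 genes lie beyond 2-fold in the second, and 12 of the 24 tested sterol genes, not all of which are drawn, were lower by the adjusted p alone without reaching 2-fold.

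Signaling genes among the bright decreases included *Jak1* (a cytokine receptor kinase, -1.62 ± 0.11, siRNA1 0.13), *Mark3* (a microtubule affinity-regulating kinase, -1.49 ± 0.10, siRNA1 0.44), *Csf1* (the macrophage growth factor, -1.26 ± 0.09, siRNA1 -0.36), *Avpr1a* (a vasopressin receptor, -1.22 ± 0.08, siRNA1 -0.897), *Rgs2* (a regulator of G protein signaling, -1.11 ± 0.14, siRNA1 -0.66), and *Ptpn11* (the phosphatase Shp2, -1.05 ± 0.09, siRNA1 -0.20). The second bright *Jak1* probe gave -1.896, and another *Mark3* probe gave -0.73. Cell surface proteins included *Cd151* (a tetraspanin, -1.49 ± 0.09, siRNA1 -0.04), *Cd1d1* (a lipid-presenting molecule, -1.43 ± 0.09, siRNA1 -0.33), *Cd44* (the hyaluronan receptor, -1.404 ± 0.09, siRNA1 -0.35), and *P2rx4* (an ATP-gated channel, -1.196 ± 0.10, siRNA1 -0.01). Among cytokines, *Ccl25* (-1.55 ± 0.09, siRNA1 -1.39) was lower, and the dim *Il1b* (1.35 ± 0.17, siRNA1 -0.49) was higher, while siRNA1 gave a negative value for the latter. *Il1b* lost its call under the 2 normexp background corrections, with a weakest value of 0.14. Of the 23 tested cytokine and chemokine genes, 1 was called higher and 3 lower, against 0.693% and 1.79% of all genes.

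In the secretory and endosomal pathways, *Bnip1* (a SNARE protein, -1.67 ± 0.09, siRNA1 -0.44), *Vps25* (a subunit of ESCRT-II, -1.52 ± 0.09, siRNA1 -0.02), *Rbsn* (rabenosyn-5, -1.43 ± 0.09, siRNA1 0.30), *Sec23a* (a COPII coat protein, -1.25 ± 0.14, siRNA1 0.04), *Snx10* (a sorting nexin, -1.16 ± 0.14, siRNA1 -0.06), and *Vamp3* (a vesicle SNARE, -1.11 ± 0.17, siRNA1 0.41) were lower. The chaperone calnexin was lower by its brightest probe, *Canx* (-1.08 ± 0.10, siRNA1 0.03), with -0.54 and -0.40 for the other 2. Of 31 tested genes of the unfolded protein and amino acid stress response, *Canx* was the 1 called, while 1.79% of all genes were called lower. The bright genes that are known to act in glycosylation did not all move one way. Lower were *Uxs1* (UDP-xylose synthesis, -1.62 ± 0.17, siRNA1 -0.28), *Gnpnat1* (UDP-N-acetylglucosamine synthesis, -1.22 ± 0.11, siRNA1 -0.42), *Alg5* (dolichol-linked glucose, -1.19 ± 0.09, siRNA1 -0.29), *Man2a1* (Golgi mannosidase, -1.03 ± 0.12, siRNA1 -0.09), and *Piga* (the first step of GPI anchors, -1.17 ± 0.14, siRNA1 -0.20), although a second *Piga* probe gave -0.12. *Man2a1* was just under 2-fold without control 2 (-0.985) and without siRNA2 array 2 (-0.95). Higher were *Pigx* (a GPI mannosyltransferase subunit, 1.25 ± 0.11, siRNA1 0.92) and *Galnt7* (a GalNAc transferase, 1.004 ± 0.17, siRNA1 1.03), whose other bright probe gave 0.94. *Galnt7* was under 2-fold with the replicate number as a block (0.94) and without control 1, control 4, or siRNA2 array 2 (0.95, 0.96, and 0.78). Among traffic genes, *Trappc2* (a TRAPP tether, 1.39 ± 0.11, siRNA1 1.302) and *Gopc* (a Golgi PDZ protein, 1.05 ± 0.08, siRNA1 1.06) were higher, with the brightest *Gopc* probe at 0.44. *Snx27*, a sorting nexin like *Snx10*, was also higher (1.12 ± 0.09, siRNA1 0.47), and its brightest probe gave 0.99. Of 31 tested genes of vesicle tethering and Golgi traffic, 2 were called higher (*Exoc4* and *Trappc2*) and 0 lower, against 0.693% and 1.79% of all genes.

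Mitochondrial genes among the decreases were *Mpv17* (-1.496 ± 0.14, siRNA1 -0.604), *Mrpl4* (a mitochondrial ribosomal protein, -1.37 ± 0.11, siRNA1 -0.35), *Endog* (endonuclease G, -1.35 ± 0.11, siRNA1 -0.28), *Aldh6a1* (-1.35 ± 0.10, siRNA1 -0.38) and *Acadsb* (branched-chain amino acid breakdown, -1.205 ± 0.16, siRNA1 -0.32), *Pink1* (a kinase of mitochondrial quality control, -1.13 ± 0.10, siRNA1 0.64), and *Coa8* (-1.03 ± 0.12, siRNA1 0.21). *Coa8* was just under 2-fold with the replicate number as a block (-0.99) and without control 4, siRNA2 array 1, or siRNA2 array 2 (-0.99, -0.98, and -0.98). The respiratory chain was not among them. Of 33 tested subunit genes, 1 had an unadjusted limma p under 0.05 (33% over all genes), and 0 were called or passed the adjusted p alone (median 0.031). The same held for 0 of 32 tested ribosomal protein genes, of which 1 had an unadjusted p under 0.05, with values from -0.31 to 0.098. *Rpsa* (the laminin-binding ribosomal protein SA, 1.09 ± 0.19, siRNA1 0.75), which is not in that list, was called higher, though not without siRNA2 array 2 (0.99), and its other probe gave 0.99. In *Elavl1*, *Tardbp*, and *Pes1* the value depended on the probe. *Elavl1* (HuR) was called at -1.66 ± 0.11 by 1 probe (siRNA1 -0.62) and had -0.56 and -0.72 at the others, *Tardbp* had -1.13 ± 0.15 (siRNA1 -0.40) with 0.046 and -0.36, and *Pes1* had -1.61 ± 0.09 (siRNA1 0.15) with -0.43. Of the ribosome biogenesis list, *Pwp2* (1.33 ± 0.09, siRNA1 1.23) and *Polr3e* (1.35 ± 0.10, siRNA1 1.62) were higher. They were the 2 called of 28 tested, while 0.693% of all genes were called higher.

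Further bright increases were of smaller size. They included the endothelin receptor *Ednra* (1.31 ± 0.09, siRNA1 2.403), the deubiquitinase *Usp15* (1.31 ± 0.12, siRNA1 1.12), the glycolytic regulator *Pfkfb3* (1.07 ± 0.11, siRNA1 0.59), the glucose-1,6-bisphosphate synthase *Pgm2l1* (1.24 ± 0.10, siRNA1 1.297), the Rac exchange factor *Arhgef7* (1.21 ± 0.16, siRNA1 0.899), the kinases *Pak2* (1.04 ± 0.12, siRNA1 0.38) and *Sgk1* (1.02 ± 0.08, siRNA1 0.601), and the transcriptional regulator *Cited2* (1.06 ± 0.13, siRNA1 0.93). *Pfkfb3* was just under 2-fold without siRNA2 array 1 (0.9987), *Pak2* without control 2 (0.95) and siRNA2 array 1 (0.98), *Sgk1* without control 3 (0.99), and *Cited2* without siRNA2 array 3 (0.95). *Pfkfb3* and *Pgm2l1* were the 2 called of 31 tested glycolysis and hypoxia genes and *Arpc1b* and *Eps15* the 2 of 32 genes of endocytosis and actin, with 0 lower in these lists. Over all genes, 0.693% were called higher and 1.79% lower. Of 30 tested genes of RNA silencing and mRNA decay, 2 were called higher and 0 lower. They were the cap-binding *Eif4e2* (1.19 ± 0.10, siRNA1 1.11) and the decapping *Dcp1a* (1.005 ± 0.11, siRNA1 1.19). The 3 other bright *Eif4e2* probes gave 1.18, 0.47, and -0.26, and the last 2 were not called. *Dcp1a* was just under 2-fold with the replicate number as a block (0.996), without control 3 (0.96), and without siRNA2 array 1 (0.93). By the adjusted p alone, 6 of the 30 were higher and 1 lower, against 8.06% and 12.2% of all genes. The higher ones included *Tnrc6a* (0.97, siRNA1 1.48), *Tnrc6b* (0.65, siRNA1 -0.07), and *Ago2* (0.52, siRNA1 0.11), which form the silencing complex. The checkpoint ubiquitin ligase *Chfr* (1.03 ± 0.12, siRNA1 1.14) was the 1 called gene of 30 tested mitosis genes, and was at 0.99 and 0.93 without control 4 and without siRNA2 array 1.

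The remaining lists gave few calls. Over all genes, 0.693% were called higher and 1.79% lower, and 8.06% and 12.2% passed the adjusted p alone in these directions. Of 31 tested DNA replication genes, 0 were called, 13 had an unadjusted limma p under 0.05 (33% over all genes), and 4 were higher by the adjusted p alone (median 0.16, siRNA1 -0.17). Of 19 tested genes of the interferon response and RNA sensing, 0 were called higher and 1 lower, *Unc93b1* (-1.65 ± 0.12, siRNA1 -1.12), which carries Toll-like receptors to endosomes, and 5 were higher by the adjusted p alone. Of 16 tested genes of antigen presentation and complement, the dim *C4b* (-1.92 ± 0.11, siRNA1 -0.15) and *Hc* (-1.33 ± 0.11, siRNA1 -1.13), both complement components, were lower. The dim *Lama2* (a laminin chain, -2.47 ± 0.10, siRNA1 -3.103) and *Nid2* (nidogen-2, -1.06 ± 0.16, siRNA1 0.27) were lower among 28 matrix genes, *Slc35f3* (-1.11 ± 0.09, siRNA1 -2.01) among 25 solute carriers, and *Igfbp4* (-1.003 ± 0.21, siRNA1 -0.996) among 23 growth factor genes. *Nr4a2*, a nuclear receptor and the 1 called of 31 immediate early genes, was not well above background on any siRNA2 array and was at least 1.83-fold lower (limma adjusted p = 0.00131, siRNA1 -1.09 on the log2 scale). *Nid2* was just under 2-fold without control 3 (-0.97) and without siRNA2 array 3 (-0.92), and *Igfbp4* without control 2, control 3, siRNA2 array 1, or siRNA2 array 3 (-0.95, -0.92, -0.98, and -0.92). In the list of autophagy and lysosome genes, *Mfsd1* (1.07 ± 0.14, siRNA1 1.18) was higher and the dim *Retreg1* (-1.88 ± 0.35, siRNA1 -1.19) lower, of 35 tested. *Hey1*, a target of Notch signaling and the 1 called of 22 tested Notch genes, was not well above background on any control array and was at least 1.61-fold higher (limma adjusted p = 0.00045, siRNA1 1.08 on the log2 scale). *Hey1* lost its call under the 2 normexp settings, with a weakest log2 value of 0.069. The dim *Nppc* (1.69 ± 0.18, siRNA1 1.205), the C-type natriuretic peptide, was higher among 26 genes of vasoactive signaling. Clock genes, heat shock proteins, and p53 targets gave 0 calls of 21, 18, and 25 tested, while 9, 5, and 11 of them had an unadjusted limma p under 0.05, against 33% of all genes. Under normexp background correction the sign turned for the dim *Retreg1* (0.37), *Nid2* (0.48), *Igfbp4* (0.39), *Nr4a2* (0.44), and *Slc35f3* (0.11). *Hc* kept its sign and lost its call under the 2 normexp settings (weakest value -0.21). *C4b* (-0.42), *Lama2* (-0.50), and *Unc93b1* (-0.71) lost theirs under 1 of the 2.

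In the direct comparison of siRNA2 with siRNA1, the difference is between the siRNA arrays alone, while the control arrays enter the estimate of the spread. Of the 24250 tested probes, 351 (1.45%) were higher and 463 (1.91%) lower with siRNA2 than with siRNA1. Against the same 4 control arrays, siRNA1 had 288 higher (1.19%) and 438 lower (1.81%) probes. The bright probes called with siRNA2 had a median log2 fold change of 1.16 with siRNA2 and 0.97 with siRNA1 where they were higher, and of -1.21 with siRNA2 and -0.16 with siRNA1 where they were lower. Of the 80 higher ones, 9 were also called higher than siRNA1, and of the 192 lower ones, 120 were also called lower than siRNA1. Both comparisons contain the siRNA2 arrays, and the probes were chosen for their siRNA2 values, so these counts describe the probes and do not test the duplexes as a whole.

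The bright genes farthest above siRNA1 were *G6pc*, *Fkbp7*, *Npy4r*, *Myo5b*, and *Arhgap22*. *G6pc* differed by 2.45 ± 0.10 on the log2 scale (SE, limma adjusted p = 1.33e-07) and *Npy4r* by 1.88 ± 0.12 (adjusted p = 2.16e-06). *Fkbp7*, a prolyl isomerase of the endoplasmic reticulum, had 229.8, 202, 191 and 220.3 in the controls, 499, 497 and 526 with siRNA2, and 153, 142, 120.0 and 131 with siRNA1, so that the controls lay between the duplexes (siRNA2 minus siRNA1 1.902 ± 0.10, siRNA2 against control 1.27, siRNA1 -0.63). *Myo5b*, a motor of recycling endosomes, had 28.9, 26.6, 26.9 and 28.9 in the controls, 66.8, 60.3 and 69.5 with siRNA2, and 27.8, 24.5, 23.05 and 27.5 with siRNA1 (siRNA2 minus siRNA1 1.35 ± 0.09), and its other probes gave 0.89 and 0.87 for siRNA2. *Arhgap22*, a GTPase-activating protein for Rac, had 26.9, 30.6, 35.3 and 43.8 in the controls, 79.99, 77.6 and 86.9 with siRNA2, and 32.3, 38.7, 29.2 and 41.9 with siRNA1 (siRNA2 minus siRNA1 1.21 ± 0.17). The siRNA1 arrays of *Myo5b* and *Arhgap22* overlapped the controls.

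The bright genes farthest below siRNA1 were *Nutf2*, *Dhrs13*, *Dpy19l1*, *Deptor*, and *Clint1*. The siRNA2 minus siRNA1 values were -3.56 ± 0.13, -2.66 ± 0.10, -2.599 ± 0.10, and -2.42 ± 0.18 for the 4 genes described above (SE, limma adjusted p from 8.83e-08 to 6.06e-06). *Deptor* encodes an inhibitor of the kinase mTOR. It had 77.1, 89.9, 84.8 and 88.5 in the controls, 31.05, 34.6 and 34.2 with siRNA2, and 177, 205, 182 and 207 with siRNA1. The log2 fold changes of -1.35 ± 0.09 for siRNA2 and 1.18 ± 0.09 for siRNA1 were both called and of opposite sign, and siRNA2 differed from siRNA1 by -2.53 ± 0.09 (SE, limma adjusted p = 8.83e-08). A second *Deptor* probe gave -1.45 and 1.20.

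**Figure D4:**
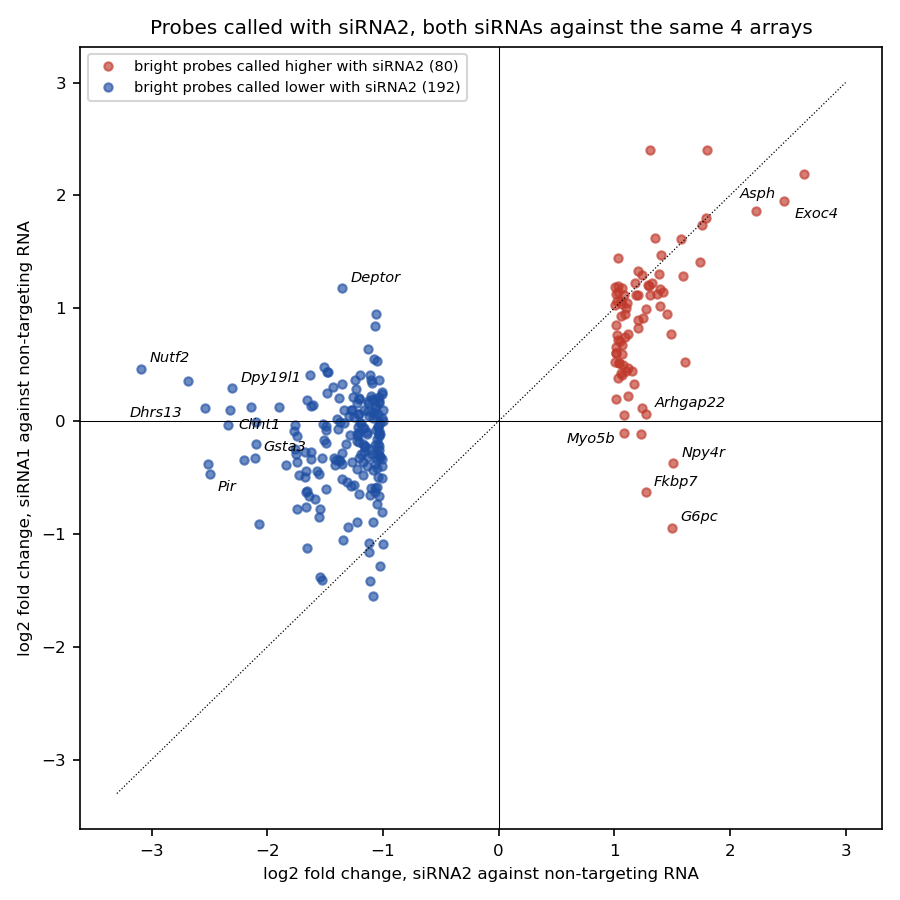
Each point is a bright probe called with siRNA2 (red, 80 higher; blue, 192 lower), with the log2 fold change of siRNA2 on the horizontal and of siRNA1 on the vertical axis, and the dotted line marks equal values. Both axes use the same 4 control arrays, and the lower probes spread around an siRNA1 value near 0 (median -0.16), while *Deptor* and *G6pc* lie on opposite sides of 0 for the 2 duplexes.

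Dim probes were described last, because a signal near background gives only a bound. Among called probes, 20 of the higher ones failed the background test on all control arrays, and 30 of the lower ones failed it on all siRNA2 arrays. For 48 of these 50 the bound on the fold was above 1, where the bound sets the bright group's mean against the lowest signal among probes well above background. *Clasp2*, a microtubule plus-end protein, was at least 4.46-fold higher, with a mean normalised signal of 6.63 with siRNA2 and a measured 1.397 in the controls (limma adjusted p = 1.28e-06, siRNA1 1.69), whereas its brighter probe gave 0.78. The transglutaminase *F13a1* was at least 4.29-fold higher (12.03 against 1.305, limma adjusted p = 0.0295, siRNA1 1.72 at a limma adjusted p of 0.0777). These signals are arithmetic means, while the fitted log2 fold change of *F13a1* with siRNA2 was 2.54. The antimicrobial peptide gene *Leap2* was at least 1.998-fold higher (3.28 against 1.26, limma adjusted p = 0.0136, siRNA1 -0.06). *Trem2*, a receptor of myeloid cells, was at least 5.55-fold lower with siRNA2 (1.17 against 8.05, limma adjusted p = 5.43e-06, siRNA1 -1.62). *Cfap161*, a ciliary gene, was at least 3.81-fold lower (0.9598 against 5.57, siRNA1 -0.20), and *Cish*, a feedback inhibitor of cytokine signaling, at least 3.47-fold lower (1.203 against 5.03, siRNA1 -0.31). Under normexp the *Trem2* value was 0.0498, i.e., its sign turned. The probes of *Clasp2*, *F13a1*, *Leap2*, *Cfap161*, and *Cish* were not examined under normexp or the other alternatives. All 3 lower probes were well above background on all control and all siRNA1 arrays.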

How the data were processed

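Single-color arrays (Whole Mouse Genome, Agilent) of 11 samples of MLTCs were analysed. Per the labels and file headers, the authors labeled 300 ng of total RNA with Cyanine-3, and Feature Extraction (version 9.5.1.1) subtracted background and gave the deposited signal intensity of each spot, not normalized between arrays. The authors also deposited a table of group averages for selected probes, which gave a few gene names and no values here.

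The intensity was converted to log2, the 75th percentile of the non-control spots was subtracted on each array, outlier-marked spots were left out, and spots of a probe were averaged (41174 probes). Probes were named by RefSeq accession (24375) or the deposited table (26), which gave 17022 tested probes a symbol, so the names rest on GRCm38.p6, and no gene coordinates of the array's older build are given. Probes that passed the software's background test on all arrays of 1 or more groups (24250) entered limma (version 3.58.1, R version 4.3.3; lmFit, contrasts.fit, and eBayes) over all 11 arrays in 3 groups, with Benjamini-Hochberg adjustment. Negative control spots had a median signal of 1.61 to 2.04 per array, 0 spots were saturated, and the number of arrays limits the precision. The fit of siRNA2 against non-targeting RNA was tested on simulated data. Genes given by array are *Mamld1*, the 15 largest increases and decreases among bright called probes with a symbol and no overlap between groups (1 probe a gene, the brightest called one, whose value sets the rank), and the 5 largest differences in each direction from siRNA1. List members that were called, other bright called genes by function, and the 3 largest bounds in each direction among dim probes with a symbol are also named. Members, lists, and rules were chosen with earlier results of these data known.

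Same-numbered control and siRNA2 arrays deviated together from their group means (r across probes 0.53, 0.29, and 0.29), so the numbers were treated as pairs in 1 alternative. This rests on the data, since the labels do not say what a number shares. Arrays of the same slide had a median r of 0.26 and others of -0.28. Alternatives were normexp background correction (offset 50) with and without replacing local backgrounds above the 99.9 percentile, quantile or median scaling, other filters, slide or replicate number as a block, fits of the 2 groups only, the methods' t-test, trend and robust options, the adjusted p alone, gene symbols in place of probes, and leaving out each array. A few genes of these lists are not reported here.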

Additional observations from a re-analysis of the deposited data

Results flagged for a closer look

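In the 35 genes given by array, the highest and the lowest of the 4 control arrays were examined for a gap to the others. In 1 gene, *Pir*, an array stood apart, with a normalised signal of 1218 on control 4 against 1340 to 1354 on the other 3. Chance flags about 1 in 20 groups, and the siRNA2 arrays of *Pir* (200 to 278) lay far below all 4 control arrays.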

How the results depend on the processing

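The counts of higher and lower probes with siRNA2 were 18 and 78 under normexp background correction, 53 and 135 with extreme local backgrounds replaced, 1867 and 2605 by the adjusted p alone, and 82 and 212 as gene symbols. Those of siRNA2 against siRNA1 were 36 and 35, 120 and 169, 2862 and 2847, and 201 and 217 in the same order. Leaving out 1 array at a time gave 164 to 198 higher and 350 to 387 lower probes with siRNA2, and 334 to 395 and 425 to 527 against siRNA1. The log2 fold change of *Mamld1* was 0.44 under normexp (limma adjusted p = 0.749) and -0.19 with extreme backgrounds replaced (0.255), and it missed the adjusted p without a filter on dim probes (-0.77, adjusted p = 0.0762) and by the methods' t-test with Benjamini-Hochberg adjustment (-0.77, 0.0898). Without 1 array at a time it was -0.88 to -0.58. With the replicate number as a block, the counts were 195 and 372 with siRNA2, 366 and 497 against siRNA1, *Mamld1* was at -0.78, and *Dcp1a* at 0.996 lost its call, the 1 lost among 67 named probes (genes given by array and called list members). Of 203 bright called genes, 12 lost the call with that block, 11 with slide as a block, and 0 to 22 without 1 array, 147 kept it without any 1 array, and 0 changed sign. Under normexp the sign turned for *Retreg1* (0.37), *Nid2* (0.48), *Trem2* (0.0498), *Igfbp4* (0.39), *Nr4a2* (0.44), and *Slc35f3* (0.11), none of which is bright. Over the 67 probes, 1527 of 1601 values kept direction and call, 68 kept direction and lost the call, and 6 turned, the ones above. These probes were chosen for their values in the same data, so the counts describe them and test nothing. Leaving out an siRNA1 array can alter only the spread, and it lost 0 calls among the 67 probes and among the 203 genes. Of the 68 lost calls, 48 came from the 2 normexp settings. The causes were not tested. Signal over background limits the dim probes.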
